A study of Mus musculus with 13 samples.

Results

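Antigen receptor-induced early activation genes are transcribed within hours of T cell receptor engagement, and 10 of them were followed here: Cd69, Nr4a1, Nr4a3, Egr1, Egr2, Egr3, Irf4, Batf, Myc and Fos. They were chosen by name, with earlier results of these data known. Each of the 10 was represented by the probe set that named that symbol alone, and each had exactly 1 such probe set. They were 10 of 22180 genes with a named probe set, and all 10 were among the 12710 genes tested, those above 4.31 (the median of all log2 values) in at least 4 of the 13 arrays. All 10 lay above that floor on every array.

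The series measured RNA by microarray in donor CD4+ T cells during the first days of a graft-versus-host response in mice. Splenocytes of C57BL/6 mice, labelled with CFSE (a dye diluted by cell division), were transferred into the blood of B6D2F1 hosts, whose other parental antigens the donor cells recognise. All mice were 10 to 12 weeks old at purchase. Hosts in the vehicle group (4 arrays) were injected with vehicle into the peritoneum once a day from day 0 to day 2. Hosts in the TCDD group (4 arrays) received 15 µg/kg TCDD (dioxin) on day 0 only, and hosts in the Cl-BBQ group (5 arrays) received 10 mg/kg of Cl-BBQ in each of 3 daily injections from day 0 to day 2. Both compounds bind the aryl hydrocarbon receptor (AhR), a transcription factor switched on by small molecules. Donor cells with at least 2 divisions by their dye content were taken from spleen and lymph node on day 3, at 72 h, with CD4 microbeads and then by flow sorting. Every group therefore held transferred cells that were already activated and dividing, and no group of resting, undivided or undosed cells is among the samples. Dose and timing were not matched between the ligands, and the TCDD hosts had fewer injections than the vehicle hosts. The labels call the arrays of a group biological replicates. P-values measure the spread between these arrays.

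Engagement of the T cell receptor activates calcium, Ras and kinase cascades, which switch on a first wave of genes without the need for new protein synthesis. Fos, Egr and Nr4a genes belong to this wave and encode short-lived transcription factors. Myc, Irf4 and Batf are also induced early and direct growth, effector differentiation and chromatin opening. CD69 reaches the surface early, where it binds the receptor for sphingosine 1-phosphate (S1P) and holds the cell in lymphoid tissue.

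The search used the RefSeq promoter table of the GRCm38.p6 assembly, with windows from 250 bases before to 50 bases after a transcript start. Windows on 1 numbered chromosome, and those off the numbered, X and Y chromosomes, were left out. The windows searched matched 6 of the 10 genes (Nr4a1, Nr4a3, Egr2, Irf4, Batf and Fos) with 10 windows. The windows of Irf4 and Fos are shown because these genes were called below, and 1 of the 5 windows of Egr2 because it carries a serum response element core. Capitals mark motif matches, and sequences run 5′ to 3′.
Irf4, chr13:30748983-30749282, plus strand: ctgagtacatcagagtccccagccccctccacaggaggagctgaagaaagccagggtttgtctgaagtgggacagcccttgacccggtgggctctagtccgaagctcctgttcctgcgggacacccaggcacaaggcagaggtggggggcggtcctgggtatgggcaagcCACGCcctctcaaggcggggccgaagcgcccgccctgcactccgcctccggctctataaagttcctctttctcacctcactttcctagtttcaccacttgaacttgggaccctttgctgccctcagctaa
Fos, chr12:85473640-85473939, plus strand: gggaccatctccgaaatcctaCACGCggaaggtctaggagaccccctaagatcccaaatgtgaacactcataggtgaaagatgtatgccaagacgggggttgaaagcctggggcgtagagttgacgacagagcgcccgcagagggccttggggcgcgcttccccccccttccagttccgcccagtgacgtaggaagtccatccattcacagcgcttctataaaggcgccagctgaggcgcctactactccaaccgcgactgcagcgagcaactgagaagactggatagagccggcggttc
Egr2, chr10:67537619-67537918, plus strand: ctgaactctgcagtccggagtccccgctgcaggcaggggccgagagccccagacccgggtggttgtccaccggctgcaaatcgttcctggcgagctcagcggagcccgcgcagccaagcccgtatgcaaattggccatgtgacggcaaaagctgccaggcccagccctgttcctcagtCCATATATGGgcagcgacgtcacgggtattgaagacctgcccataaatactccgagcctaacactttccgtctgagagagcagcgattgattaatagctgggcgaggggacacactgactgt
The letters CACGC in the Irf4 window, at positions -80 to -76 from the start, and in the Fos window, at -229 to -225, are the core GCGTG of an AhR binding site read on the other strand. The same core, searched on both strands, was in 32.4% of the 32851 windows searched, called all windows below, so a match is common. The Nr4a1 window held 2 such cores and the Nr4a3 window 3. The capitals in the Egr2 window are a CArG box, the site of serum response factor (CC, a run of A or T, and GG), at -72 to -63. A CArG box was in 1.63% of all windows and in 4 of the 5 windows of Egr2, 3 of which overlap and share the same box. The binding sites of EGR factors (GCGNGGGCG, 5.55% of all windows), NR4A receptors (AAAGGTCA, 1.51%), AP-1 (TGANTCA, 7.81%) and the cyclic AMP response element (TGACGTCA, 1.79%) were searched too, and the only match among the 10 windows was 1 EGR site in that of Nr4a1. These matches describe the letters and are no evidence of binding.

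Array medians lay between 4.27 and 4.33 and correlations between arrays between 0.943 and 0.976. The 7 measured CD4 T cell markers had array means of 11.06 to 11.45 on the log2 scale, while the array means of the CD8 markers Cd8a and Cd8b1 lay between 5.28 and 6.12. B cell markers (7 measured) had array means of 3.99 to 4.50 and myeloid markers (8 measured) of 3.99 to 4.34, both around the floor. Of the B cell and myeloid lists, 2 single markers passed the test in both comparisons with vehicle, namely Cd22, an inhibitory lectin known from B cells (log2 difference from vehicle -2.14 with TCDD and -2.07 with Cl-BBQ), and Cd68, a myeloid lysosomal protein (0.79 and 0.64, calls lost when any of 5 and 7 arrays was left out, with limma adjusted p up to 0.0805 and 0.135, both without vehicle replicate 3). Cd22 lay below the floor on all treated arrays (at most 4.22 with TCDD and 4.29 with Cl-BBQ) and passed the filter through its vehicle arrays (5.89 to 6.54). Dendritic cell, neutrophil and NK cell markers had array means no higher than 4.43, and erythroid markers were not analysed here. The NK cell marker Klrb1c lay above the floor on every array (5.90 to 6.24 with vehicle, 5.29 to 6.13 with TCDD, 5.37 to 5.99 with Cl-BBQ). Its log2 differences were -0.33 and -0.50, and neither was called (limma, adjusted p = 0.358 and 0.07). With Cl-BBQ it passed without TCDD replicate 1 (0.0308) or Cl-BBQ replicate 4 (0.0287). Among the CD4 T cell markers, Thy1 passed in both (log2 difference 0.30 and 0.36, limma, adjusted p = 0.0351 and 0.00418), a call lost with TCDD when any of 7 arrays was left out (up to 0.103 without TCDD replicate 3). In these bulk samples fewer cells of a type and less RNA per cell cannot be told apart.

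Against vehicle, the 10 early activation genes did not move as one block. Cd69 rose with both ligands, Irf4 fell with both, and Myc and Fos rose with Cl-BBQ, while Nr4a1, Nr4a3, Egr1, Egr2, Egr3 and Batf passed the test with neither. Differences were tested with limma in one model over the 13 arrays, and a gene is called where its adjusted p (Benjamini-Hochberg over 12710 genes) is under 0.05. With TCDD, 1 of the 10 was called higher, where 3.21% of all tested genes were, and 1 lower, where 3.5% were. With Cl-BBQ, 3 were called higher against 5.31% of all genes and 1 lower against 6.03%. An unadjusted p under 0.05 was reached by 6 of the 10 with TCDD, of which 5 were higher, against 18% of all genes, and by 8 with Cl-BBQ, of which 7 were higher, against 23%. The log2 difference was above 0 for 9 of 10 genes with either ligand, where 49.8% and 48.8% of all tested genes were. The median difference was 0.25 with TCDD and 0.30 with Cl-BBQ, beside medians of -0.00089 and -0.0064 over all genes. Both comparisons use the same 4 vehicle arrays. The 10 genes were chosen with earlier results of these data known, so their counts beside all genes are a description only.

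**Figure D1:**
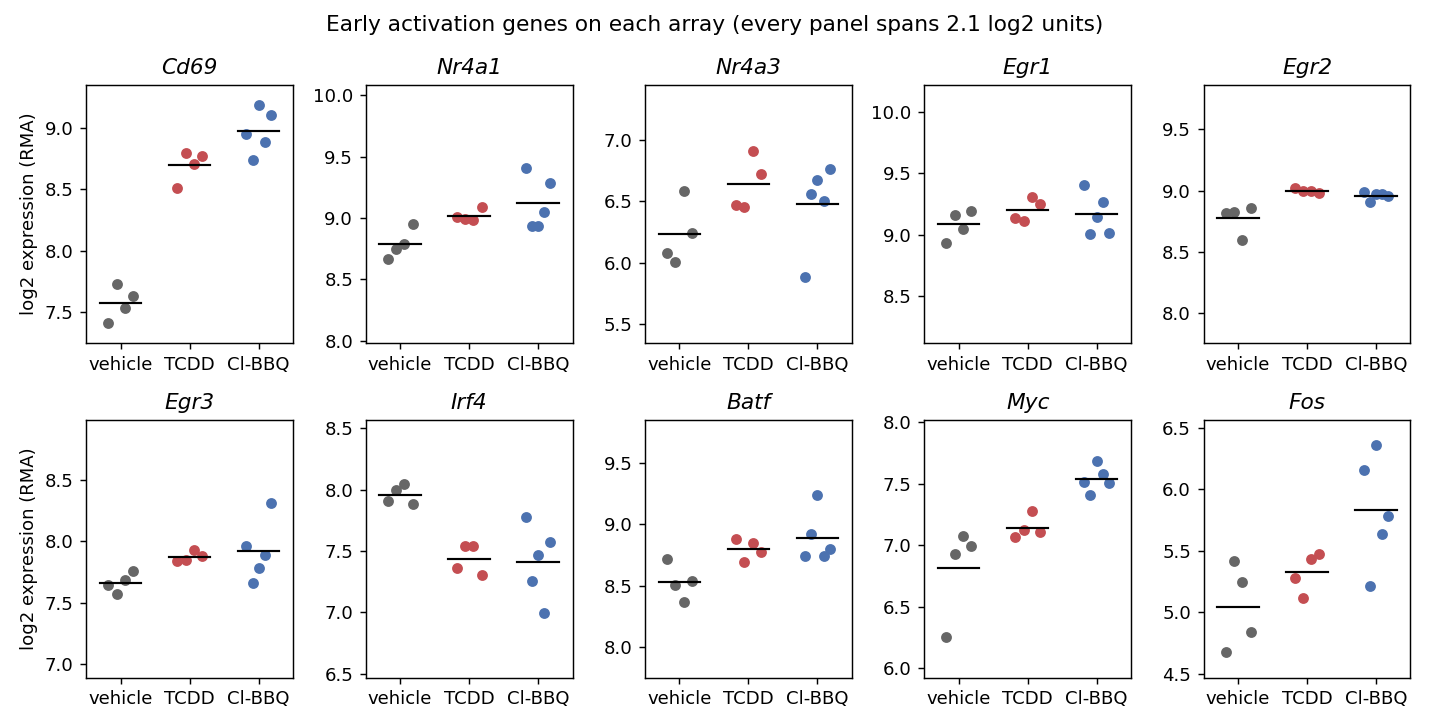
Each point is 1 array (4 vehicle, 4 TCDD, 5 Cl-BBQ), the y axis is log2 expression after RMA, and the horizontal bar is the group mean. Every panel spans the same number of log2 units. Cd69 shows the widest gap between vehicle and treated arrays, and the treated arrays of Irf4 all lie below the vehicle arrays.

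**Figure D2:**
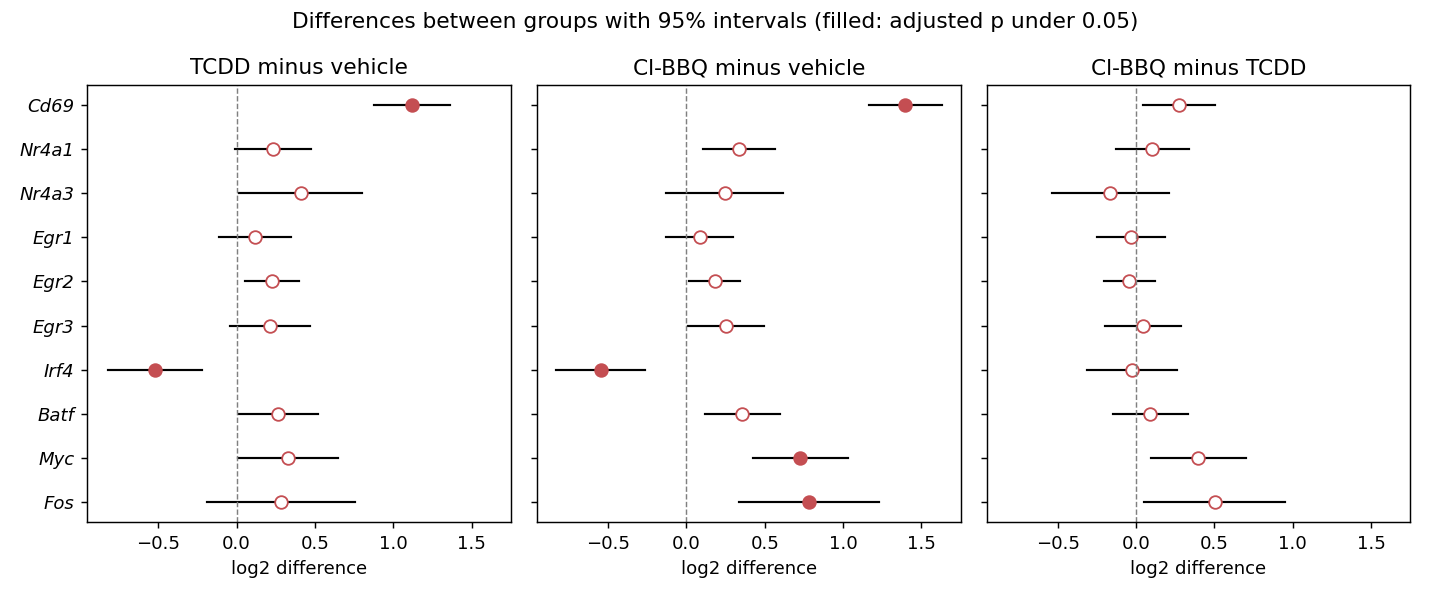
Points are limma log2 differences between group means for each gene and bars are 95% intervals, with filled points where the adjusted p is under 0.05. Cd69 and Irf4 are filled in both comparisons with vehicle, Myc and Fos in that of Cl-BBQ, and none in the comparison of the ligands.

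Cd69 (probe set 17471502) encodes the lectin-type activation antigen that retains lymphocytes by removing the S1P receptor from the surface. Its log2 expression was 7.41, 7.73, 7.54 and 7.63 on the vehicle arrays, 8.51, 8.80, 8.71 and 8.77 with TCDD, and 8.95, 8.74, 9.19, 8.88 and 9.10 with Cl-BBQ. All 9 treated arrays lay above all 4 vehicle arrays, and the TCDD and Cl-BBQ arrays overlapped. Cd69 rose 2.17-fold with TCDD (log2 difference 1.12 ± 0.11 SE, limma, adjusted p = 2.16e-05) and 2.64-fold with Cl-BBQ (1.40 ± 0.11, adjusted p = 6.88e-07). It was the only one of the 10 with a difference above 1 log2 unit.

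Separation of the arrays was seen beyond the called genes. With TCDD all 4 arrays lay above all 4 vehicle arrays for Cd69, Nr4a1, Egr2 and Egr3 (4 of 10 genes, against 6.31% of all tested genes), and below for Irf4 (1 of 10, against 7.28%). With Cl-BBQ all 5 arrays lay above all vehicle arrays for Cd69, Egr2, Batf and Myc (4 of 10, against 6.08%), and below for Irf4 (1 of 10, against 6.8%). In a two-sided exact permutation test of 1 gene such a separation gives an unadjusted p of 0.0286 with TCDD and 0.0159 with Cl-BBQ, the smallest that these group sizes allow.

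Irf4 (probe set 17286295) encodes interferon regulatory factor 4, whose amount follows the strength of receptor signalling and which pairs with BATF on DNA. Vehicle arrays read 7.91, 7.997, 8.04 and 7.88, TCDD arrays 7.36, 7.54, 7.54 and 7.30, and Cl-BBQ arrays 7.78, 7.25, 7.47, 7.00 and 7.57. Every treated array was below every vehicle array, and Cl-BBQ replicate 1, the highest treated array, came within about 0.1 of the lowest vehicle array. Irf4 fell by 0.52 on the log2 scale with TCDD (SE 0.14, limma, adjusted p = 0.0377) and by 0.54 with Cl-BBQ (SE 0.13, adjusted p = 0.0139). The call with TCDD was lost without any one of the 8 arrays compared. The adjusted p was 0.072, 0.0917, 0.0965 and 0.0597 without vehicle replicates 1 to 4, and 0.0962, 0.0583, 0.058 and 0.105 without TCDD replicates 1 to 4. It was also lost with no filter on dim genes (0.0729). The call with Cl-BBQ held without any single array, with a highest adjusted p of 0.0448.

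Batf (probe set 17277404) encodes the AP-1 family partner of IRF4. Its values were 8.72, 8.51, 8.36 and 8.54 with vehicle, 8.88, 8.69, 8.84 and 8.77 with TCDD, and 8.74, 8.92, 9.24, 8.74 and 8.80 with Cl-BBQ. The log2 difference was 0.27 ± 0.12 SE with TCDD (limma, adjusted p = 0.247) and 0.36 ± 0.11 with Cl-BBQ (adjusted p = 0.0551). The difference with Cl-BBQ passed without vehicle replicate 1 (adjusted p = 0.042) and without Cl-BBQ replicate 1 (0.0433). It also passed under 4 other settings, with adjusted p between 0.0265 and 0.0429. Batf and Irf4, whose proteins bind DNA together, thus had differences of opposite sign, with only that of Irf4 called.

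Fos (probe set 17277387) encodes the c-Fos subunit of AP-1, transcribed within minutes of stimulation and rapidly shut off. It read 4.68, 5.42, 5.25 and 4.84 with vehicle, 5.28, 5.12, 5.44 and 5.47 with TCDD, and 6.15, 5.21, 6.36, 5.64 and 5.78 with Cl-BBQ. All but 1 of the 5 Cl-BBQ arrays were above every vehicle array, while Cl-BBQ replicate 2 lay within the vehicle range. Fos rose 1.72-fold with Cl-BBQ (log2 difference 0.78 ± 0.21 SE, limma, adjusted p = 0.0238), and its difference with TCDD was 0.28 ± 0.22 (adjusted p = 0.58). The call was lost without vehicle replicate 1 (adjusted p = 0.0876), vehicle replicate 4 (0.074), Cl-BBQ replicate 1 (0.0522) or Cl-BBQ replicate 3 (0.0551), and with only the 2 groups in the fit (0.0563). Over the alternatives the difference with TCDD ran from 0.16, without vehicle replicate 1, to 0.41. Its vehicle arrays were close to the floor of 4.31, where array values compress differences.

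Myc (probe set 17311846) encodes the transcription factor of ribosome production and metabolic growth. It was at 6.25, 6.93, 7.07 and 6.99 with vehicle, 7.06, 7.12, 7.28 and 7.11 with TCDD, and 7.52, 7.41, 7.69, 7.58 and 7.51 with Cl-BBQ. All 5 Cl-BBQ arrays lay above every other array, and the TCDD arrays overlapped only the highest vehicle array. Myc rose 1.66-fold with Cl-BBQ (log2 difference 0.73 ± 0.14 SE, limma, adjusted p = 0.00272), a call kept in all 22 alternatives with a highest adjusted p of 0.0119. With TCDD the difference was 0.33 ± 0.15 (adjusted p = 0.256). Vehicle replicate 1 was the low array, and without it the difference was 0.14 with TCDD and 0.54 with Cl-BBQ.

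Nr4a1 (probe set 17315178) encodes Nur77, an orphan nuclear receptor whose transcription is used as a reporter of receptor signalling. Its arrays read 8.66, 8.74, 8.79 and 8.95 with vehicle, 9.01, 8.99, 8.99 and 9.09 with TCDD, and 9.40, 8.94, 8.94, 9.05 and 9.29 with Cl-BBQ. Each TCDD array exceeded each vehicle array, and 2 Cl-BBQ arrays lay just under the highest vehicle array. The log2 difference was 0.23 ± 0.11 SE with TCDD (limma, adjusted p = 0.309) and 0.34 ± 0.11 with Cl-BBQ (adjusted p = 0.0617). With Cl-BBQ it passed without vehicle replicate 4 (adjusted p = 0.0491), Cl-BBQ replicate 2 (0.0419) or Cl-BBQ replicate 3 (0.0434), with a floor of 6 in at least 4 arrays (0.0341) and with a trended, robust variance model (0.0282).

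Nr4a3 (probe set 17413945) encodes NOR-1 of the same receptor family. Values were 6.08, 6.01, 6.58 and 6.24 with vehicle, 6.47, 6.45, 6.91 and 6.72 with TCDD, and 5.88, 6.55, 6.67, 6.50 and 6.76 with Cl-BBQ. Cl-BBQ replicate 1 was the lowest of all 13 arrays for Nr4a3 and the highest of all 13 for Nr4a1. The differences of Nr4a3 were 0.41 ± 0.18 SE with TCDD (limma, adjusted p = 0.255) and 0.25 ± 0.17 with Cl-BBQ (adjusted p = 0.453). Without Cl-BBQ replicate 1 the difference with Cl-BBQ was 0.39 (adjusted p = 0.0922).

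The Egr genes encode zinc finger factors induced through Ras and kinase signalling, of which EGR2 and EGR3 are also known for restraining T cell responses. Egr2 (probe set 17233993) read 8.82, 8.83, 8.60 and 8.86 with vehicle, 9.02, 9.001, 8.998 and 8.98 with TCDD, and 8.99, 8.91, 8.97, 8.97 and 8.95 with Cl-BBQ. Each treated array exceeded each vehicle array. The SD was 0.017 with TCDD, 0.031 with Cl-BBQ and 0.12 with vehicle. In the vehicle group replicate 3 (8.60) lay apart from the other arrays (8.82 to 8.86). The log2 difference was 0.22 ± 0.08 SE with TCDD (limma, adjusted p = 0.134) and 0.18 ± 0.08 with Cl-BBQ (adjusted p = 0.166), so neither was called. Egr3 (probe set 17301718) ranged from 7.57 to 7.76 with vehicle, 7.84 to 7.93 with TCDD and 7.66 to 8.31 with Cl-BBQ, with differences of 0.21 ± 0.12 (adjusted p = 0.397) and 0.26 ± 0.11 (adjusted p = 0.189). Egr1 (probe set 17349514) ranged from 8.93 to 9.20, 9.11 to 9.31 and 9.01 to 9.41. All 3 groups overlapped for Egr1, whose differences were the smallest of the 10 genes at 0.12 ± 0.11 (adjusted p = 0.647) and 0.08 ± 0.10 (adjusted p = 0.695).

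**Figure D3:**
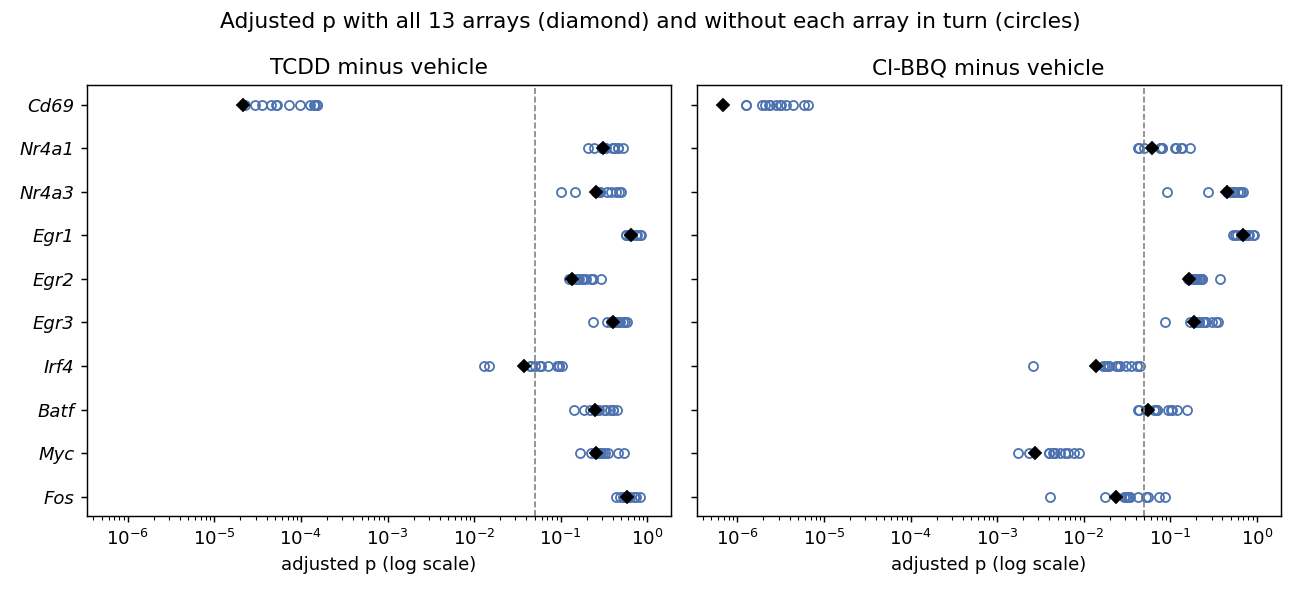
The x axis is the limma adjusted p on a log scale, diamonds stand for all 13 arrays, circles for fits without 1 array, and the dashed line is at 0.05. Cd69 stays far below the line in both comparisons, whereas the circles of Irf4 with TCDD and of Fos, Batf and Nr4a1 with Cl-BBQ lie on both sides of it.

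Cl-BBQ and TCDD were also compared with each other, as regimens that differ in dose and schedule. None of the 10 genes was called, where 0.0236% of tested genes (3 of 12710) were by limma. An unadjusted p under 0.05 was reached by 3 of the 10, all higher with Cl-BBQ, against 6.41% of all genes. Myc was 0.40 higher on the log2 scale with Cl-BBQ (95% interval 0.09 to 0.70, unadjusted p = 0.0137, adjusted p = 0.627), and was the 1 gene of the 10 for which all Cl-BBQ arrays were above all TCDD arrays, as in 1.03% of all genes. Fos differed by 0.50 (interval 0.05 to 0.95, adjusted p = 0.75) and Cd69 by 0.28 (interval 0.05 to 0.51, adjusted p = 0.686). For Irf4 the difference was -0.03 with an interval of -0.31 to 0.26, so these arrays leave room for a difference of either sign up to about that size. The intervals of the remaining genes ran from -0.13 to 0.34 for Nr4a1, -0.54 to 0.21 for Nr4a3, -0.25 to 0.18 for Egr1, -0.21 to 0.12 for Egr2, -0.20 to 0.29 for Egr3 and -0.15 to 0.33 for Batf.

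Whether the 10 genes varied together from array to array was examined on deviations from the group means, over 13 arrays and 45 pairs of genes. Of these, 32 pairs had a positive Pearson r, with a median of 0.16 and a range of -0.56 to 0.71. No pair passed Benjamini-Hochberg adjustment over the 45 pairs for either Pearson's r or Spearman's rho, and 4 pairs had an unadjusted p under 0.05 for r (exact permutation within groups, two-sided). The 2 arrays left out below were those farthest from the first-named gene's median over the 13 arrays, group differences included. For Cd69 this picked 2 low vehicle arrays, so it says little about single arrays that carry r. Cd69 with Fos had r = 0.67 (permutation p = 0.0352, adjusted p = 0.548) and rho = 0.59 (p = 0.0723, adjusted p = 0.754), and r was also 0.67 without vehicle replicates 1 and 3. Without Cl-BBQ replicate 2 alone r was 0.51, its lowest on leaving out 1 array. Myc with Fos had r = 0.54 (permutation p = 0.0336, adjusted p = 0.548) and rho = 0.51 (p = 0.11, adjusted p = 0.754), and r fell to 0.28 without vehicle replicate 1 and Cl-BBQ replicate 3. Cd69 with Myc had r = 0.52 (permutation p = 0.0495, adjusted p = 0.548) and rho = 0.47 (p = 0.117, adjusted p = 0.754), and r was 0.56 without vehicle replicates 1 and 3. Without vehicle replicate 1 alone r was 0.43, its lowest on leaving out 1 array. The negative pair of the 4 was Nr4a3 with Egr2, at r = -0.53 (permutation p = 0.0461, adjusted p = 0.548) and rho = -0.71 (p = 0.0105, adjusted p = 0.358), and r was -0.58 without vehicle replicate 2 and Cl-BBQ replicate 1. Outside these 4, Nr4a1 with Egr3 had the highest r of all pairs at 0.71 (permutation p = 0.0609, adjusted p = 0.548) and rho = 0.77 (p = 0.0159, adjusted p = 0.358), and r was 0.91 without vehicle replicate 1 and Cl-BBQ replicate 1. The 2 Nr4a genes were not alike within groups, with r = -0.32 between Nr4a1 and Nr4a3 (permutation p = 0.473, adjusted p = 0.865) and rho = -0.13 (p = 0.714, adjusted p = 0.99), and without vehicle replicate 1 and Cl-BBQ replicate 1 the sign turned to 0.22.

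**Figure D4:**
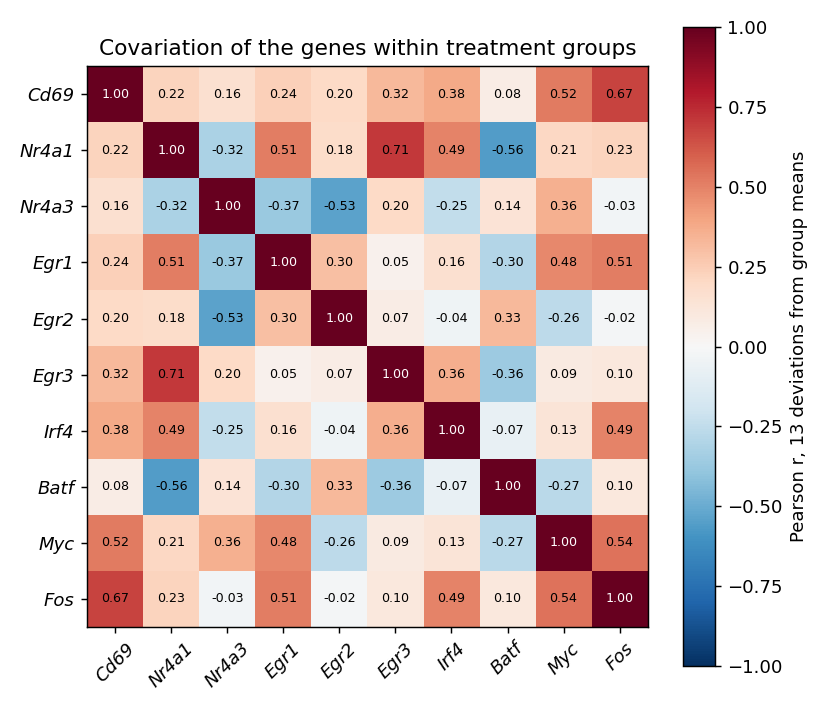
Each cell is the Pearson r between the deviations of 2 genes from their group means over 13 arrays, red for positive and blue for negative. Of the 45 pairs 32 are positive, with Nr4a1 and Egr3 (0.71) and Cd69 and Fos (0.67) the highest.

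Genes around the same pathway were examined as lists, described by counts and medians. Of all tested genes, 3.21% were called higher and 3.5% lower with TCDD, and 5.31% and 6.03% with Cl-BBQ. No list's count was tested against these shares. Of 21 tested further immediate early genes, 1 was called with TCDD and 5 with Cl-BBQ, all higher, with median log2 differences of 0.14 and 0.28. Klf6, a zinc finger factor, rose with both (0.57 ± 0.14 SE and 0.65 ± 0.13, limma, adjusted p = 0.0182 and 0.00326). The growth-restraining genes Btg1 (0.50 ± 0.11) and Btg2 (0.55 ± 0.13), the AP-1 subunit gene Fosl2 (0.71 ± 0.16) and the kinase phosphatase gene Dusp5 (0.68 ± 0.14) rose with Cl-BBQ, with adjusted p between 0.00429 and 0.0121. With TCDD, Btg1, Btg2, Fosl2 and Dusp5 were at 0.38, 0.43, 0.39 and 0.35, and none was called (adjusted p between 0.073 and 0.255). Btg2 passed with TCDD without vehicle replicate 2 (limma, adjusted p = 0.0482) or vehicle replicate 4 (0.0497). It also passed with a floor of 6 (0.0478) and with the trended, robust variance model (0.034). The Klf6 call with TCDD was lost without vehicle replicate 1 (adjusted p = 0.0577), vehicle replicate 2 (0.0556) or TCDD replicate 4 (0.0504). Jun, the main partner of Fos, ranged from 4.37 to 5.42 with vehicle, 4.92 to 5.21 with TCDD and 4.84 to 6.69 with Cl-BBQ, and was not called in either comparison (adjusted p = 0.892 and 0.155), except with Cl-BBQ without its replicate 5 (adjusted p = 0.0481).

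Among 20 tested feedback inhibitors of receptor signalling, 2 rose with TCDD, and with Cl-BBQ 2 rose and 2 fell (medians 0.03 and 0.07). Sla2, an adaptor that dampens receptor signalling, rose by 0.93 ± 0.10 SE with TCDD and 1.10 ± 0.10 with Cl-BBQ (limma, adjusted p = 5.23e-05 and 2.89e-06), and its relative Sla by 0.48 ± 0.11 and 0.55 ± 0.11 (adjusted p = 0.0153 and 0.00255). Spry1 and Spred2, inhibitors of Ras signalling, fell with Cl-BBQ by 0.69 and 0.46 on the log2 scale (adjusted p = 0.00694 and 0.00909). With TCDD they were at -0.50 and -0.33 and were not called (adjusted p = 0.0864 and 0.106). Spry1 passed with TCDD without vehicle replicate 4 (limma, adjusted p = 0.0397). None of the 9 tested NFAT and NF-kB genes, which encode the factors that carry the receptor signal to the nucleus, was called with either ligand, and their medians were 0.05 and 0.06.

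The list around BATF and IRF4 holds partners, relatives and other lymphocyte factors. Of its 12 tested genes, 3 rose with each ligand and 2 fell with Cl-BBQ (medians 0.19 and 0.21). The repressor gene Prdm1, known to be controlled by IRF4 in lymphocytes, went from 5.64 ± 0.30 (SD, n = 4) with vehicle to 6.67 ± 0.39 (n = 4) with TCDD and 6.77 ± 0.37 (n = 5) with Cl-BBQ (limma, adjusted p = 0.0107 and 0.00209). Ikzf3, encoding the Ikaros family factor Aiolos, rose by 1.01 ± 0.10 SE and 1.15 ± 0.10, and Id2, an inhibitor of E proteins, by 1.08 ± 0.14 and 1.18 ± 0.13, with adjusted p of at most 2.04e-04. Irf8, the closest relative of Irf4, fell by 1.26 on the log2 scale with Cl-BBQ (SE 0.32, adjusted p = 0.0192), a call lost without vehicle replicate 3 (0.0738), and was at -1.07 with TCDD (adjusted p = 0.085). Ikzf2, encoding Helios, fell by 0.56 with Cl-BBQ (adjusted p = 0.0156), a call lost without vehicle replicates 1 (0.0583), 2 (0.057) or 4 (0.0537). With TCDD Ikzf2 was at -0.43 (adjusted p = 0.105), and it passed without vehicle replicate 3 (0.00408) and with array weights (0.0222). Irf4 and Irf8 are also expressed by B cells, whose marker Cd22 fell with both ligands, 1 of 5 tested markers of that list. The array means of the 7 measured B cell markers were 4.26 to 4.50 with vehicle, 3.99 to 4.27 with TCDD and 4.10 to 4.301 with Cl-BBQ, and Ms4a1 and Ebf1 had group means below the floor in all 3 groups. Of the tested markers other than Cd22, log2 differences with TCDD and Cl-BBQ were 0.0043 and -0.20 for Cd79a, 0.10 and 0.64 for Cd79b, -0.02 and -0.02 for Pax5, and 0.18 and 0.17 for Blk, and none was called. The part of B cell RNA in these falls was not tested.

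The MYC network list, which holds MYC's partners, antagonists and growth targets, had 28 tested genes. With TCDD 1 rose, and with Cl-BBQ 2 rose and 3 fell, with medians of -0.09 and -0.11. Slc3a2, a subunit of amino acid transporters, rose by 0.55 ± 0.10 SE with TCDD and 0.51 ± 0.09 with Cl-BBQ (limma, adjusted p = 0.00299 and 0.00195). Its transporter partner Slc7a5 (-0.68 ± 0.17, adjusted p = 0.016), the MAX-binding repressor gene Mxd3 (-0.70 ± 0.15, adjusted p = 0.00681) and the cell cycle kinase gene Cdk4 (-0.33 ± 0.09, adjusted p = 0.0257) fell with Cl-BBQ, and the MYC antagonist gene Mxi1 rose (0.99 ± 0.29, adjusted p = 0.0373). The call of Slc7a5 was lost without vehicle replicate 3 (0.0631), that of Cdk4 without vehicle replicate 1 or 2 or Cl-BBQ replicate 1, 2 or 5 (0.0515 to 0.0877), and that of Mxi1 without vehicle replicate 1, 3 or 4 or Cl-BBQ replicate 2, 4 or 5 (0.0722 to 0.12). With TCDD, Slc7a5, Mxd3, Cdk4 and Mxi1 were at -0.54, -0.52, -0.28 and 0.73, and none was called (adjusted p between 0.0732 and 0.21). Slc7a5 passed with TCDD without vehicle replicate 4 (limma, adjusted p = 0.0188) or TCDD replicate 4 (0.035). Mxd3 passed with TCDD without vehicle replicate 4 (0.0305), with a floor of 6 (0.0433) and with array weights (0.0478). The 16 tested genes of G2 and mitosis all fell with each ligand, with medians of -1.18 and -1.55. Their array means were 8.06 to 8.46 with vehicle, 7.04 to 7.19 with TCDD and 6.65 to 6.86 with Cl-BBQ. The part of this in the differences of Myc and Irf4 was not tested.

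In the list around CD69 and the S1P receptors, none of 11 tested genes was called with TCDD, and 4 rose and 1 fell with Cl-BBQ (medians 0.11 and 0.12). S1pr1, which encodes the receptor that CD69 removes, differed by -0.04 with TCDD (limma, adjusted p = 0.891) and 0.02 with Cl-BBQ (adjusted p = 0.937), and its transcriptional activator Klf2 by 0.02 and -0.03 (adjusted p = 0.951 and 0.91). S1pr4 (0.44 ± 0.10 SE, adjusted p = 0.00871), Foxo1, an activator of Klf2 (0.36 ± 0.09, adjusted p = 0.0122), and the lectin genes Clec2d (0.49 ± 0.13, adjusted p = 0.0228) and Klrb1f (0.62 ± 0.18, adjusted p = 0.0398) rose with Cl-BBQ, and Clec2i fell by 0.58 (adjusted p = 0.0127). The call of Clec2d was lost without vehicle replicate 1 (0.0764), vehicle replicate 3 (0.081) or Cl-BBQ replicate 4 (0.0579), and that of Klrb1f when any of 8 arrays was left out (up to 0.117 without vehicle replicate 2). With TCDD, S1pr4, Foxo1, Clec2d, Klrb1f and Clec2i were at 0.21, 0.30, 0.47, 0.45 and -0.26. None was called (limma, adjusted p between 0.0594 and 0.398). Clec2d passed with TCDD without vehicle replicate 4 (0.0403), and Foxo1 without TCDD replicate 2 (0.0378). Both also passed with a floor of 6 (0.0326 and 0.0283) and with the trended, robust variance model (0.0198 and 0.0294).

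Surface genes of later activation rose in 4 of 12 tested genes with TCDD and in 5 with Cl-BBQ, where 1 fell (medians 0.22 and 0.28). Tnfrsf9, encoding the costimulatory receptor 4-1BB, rose by 1.12 ± 0.15 SE and 1.12 ± 0.14, and Ctla4, an inhibitory receptor, by 0.71 ± 0.10 and 0.81 ± 0.09 (limma, adjusted p of at most 3.41e-04). Il2ra, encoding the alpha chain of the interleukin 2 receptor, rose by 0.66 ± 0.18 and 0.97 ± 0.17 (adjusted p = 0.0378 and 0.00116), and Tnfrsf18, encoding GITR, by 0.45 ± 0.12 and 0.69 ± 0.11 (adjusted p = 0.0319 and 5.33e-04). With TCDD the call of Il2ra was lost when any of 6 arrays was left out (up to 0.112 without vehicle replicate 4) and that of Tnfrsf18 when any of 7 was (up to 0.105 without vehicle replicate 2). Icos, a costimulatory receptor, was called with Cl-BBQ (0.29, adjusted p = 0.0423), but leaving out 11 of the 13 arrays one at a time lost that call (up to 0.105 without vehicle replicate 1). Cd83, a surface protein of activated lymphocytes and dendritic cells, fell by 0.76 with Cl-BBQ (adjusted p = 0.00615). With TCDD Icos was at 0.24 and Cd83 at -0.53, and neither was called (adjusted p = 0.174 and 0.0971). Of 10 tested heat shock and handling genes, Hsp90aa1 alone was called, lower with TCDD (-0.35, adjusted p = 0.0181) and with Cl-BBQ (-0.26, adjusted p = 0.0446), and both calls were lost without single arrays (up to 0.0603 without TCDD replicate 2, and up to 0.123 without vehicle replicate 4). None of the genes in these 9 lists was called between the ligands.

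**Figure D5:**
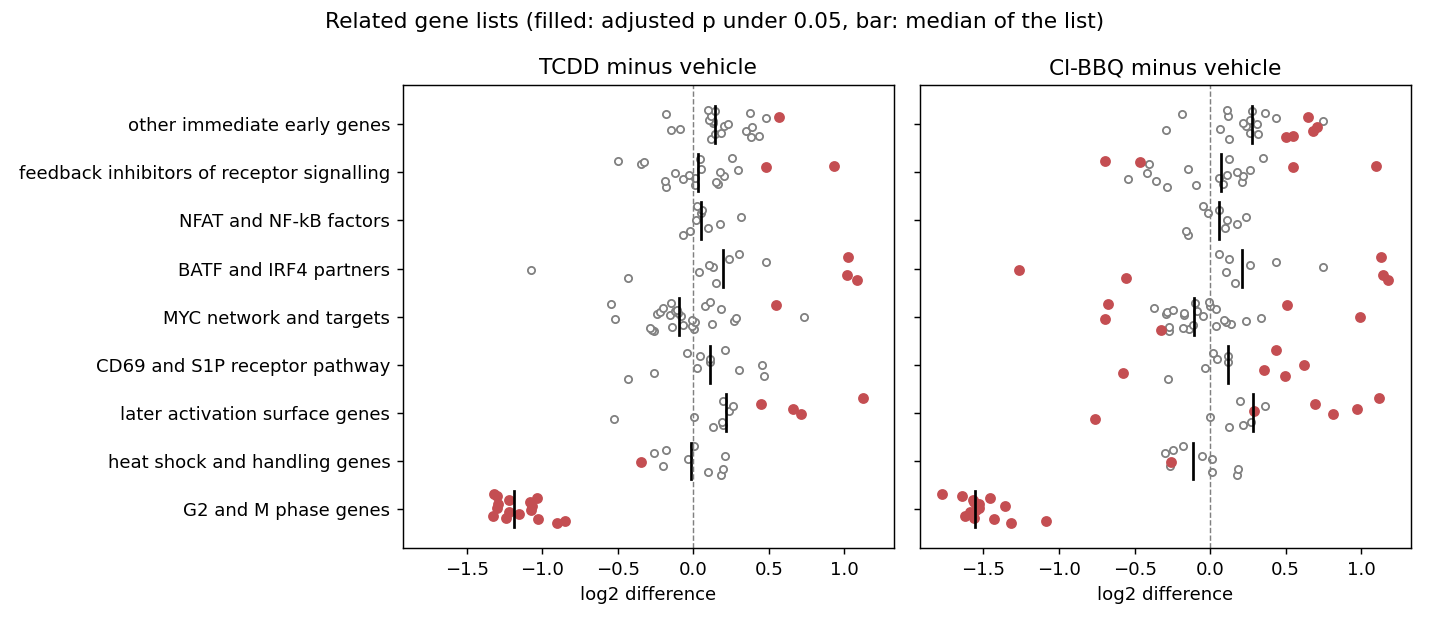
Each point is the limma log2 difference from vehicle of 1 tested gene of a list, filled where the adjusted p is under 0.05, and the vertical bar is the list's median. Points of 8 lists lie on both sides of 0, those of the other immediate early and later activation lists mostly above it. All 16 genes of the G2 and M phase list lie below it.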

How the data were processed

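Groups and replicate numbers came from the labels. The deposited table held log2 expression of 41345 probe sets, made by the authors with RMA, per the submitters' processing notes, which corrects background, normalizes quantiles and summarizes probes; the version and the software behind it are not stated in the sources used. Quantile normalization hides a shift common to all transcripts. The labels describe oligo-dT, one-cycle biotin labelling.

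The platform annotation listed 25335 probe sets (23521 with 1 symbol, 1814 with several), with symbols updated through GRCm38.p6 gene identifiers, and 16010 were unnamed here. The probe set with the highest mean stood for each gene. Coordinates are given for the RefSeq promoter windows alone and not for probe sets, since the array's build is not known here. Group means were fitted with limma 3.58.1 in R 4.3.3 (lmFit, eBayes; 10 residual and 4.22 prior degrees of freedom), with two-sided contrasts and Benjamini-Hochberg adjustment within each. SE is the moderated standard error. Exact permutation tests used scipy 1.17.1. The pipeline was tested on simulated data. The number of arrays limits the precision. All 10 genes were named whatever their result, with up to 4 called genes a list and contrast by smallest adjusted p. Jun, S1pr1, Klf2, cell type markers and called genes beyond 4 were named after their values were seen. So were the TCDD values of genes called with Cl-BBQ alone, such as Irf8. The genes and lists were chosen with earlier results of these data known.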

Additional observations from a re-analysis of the deposited data

Results flagged for a closer look

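Vehicle replicate 3 stood apart for Egr2. It read 8.60, while the other vehicle arrays lay between 8.82 and 8.86, and its gap to the nearest array was 0.834 of the group's range, above the limit of Dixon's test for 4 arrays. It was the 1 such array among 30 groups of arrays (10 genes in 3 groups), and chance alone marks about 1 group in 20. Without it the log2 difference of Egr2 was 0.16 with TCDD and 0.12 with Cl-BBQ.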

How the results depend on the processing

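The limma differences and the counts of calls were recomputed under 22 alternatives, 9 of settings and 13 leaving out 1 array. Among the 10 genes, a floor of 6 removed Fos alone. Array separations, exact permutation tests against vehicle, motif shares and the ranking of genes by r over the 13 arrays were not recomputed. The planned further probe sets of a gene could not be tried, since each of the 10 had 1. Cd69 with both ligands and Irf4 and Myc with Cl-BBQ kept their calls throughout. Members called lower with TCDD went from 1 to 0 with no filter and with the replicate block, and ranged from 0 to 1 without single arrays. Members called higher with Cl-BBQ numbered 3, and 5 with the trended, robust variance model, 4 with a floor of 6, quantile normalization again, array weights or without Cl-BBQ replicate 2, and 2 with only the 2 groups or the replicate block. Genes called between the ligands, 3 of 12710, were 0 with no filter, with only the 2 groups and with the replicate block, 5 with the mean of all probe sets, 6 with quantile normalization again and with the trended model, 7 with a floor of 6 and with array weights, and 0 to 5 without single arrays. In that comparison signs turned for Egr1 (0.00494 with the replicate block, -0.093 to 0.0078 without single arrays), Egr3 (-0.053 with the block, -0.053 to 0.11 without single arrays) and Irf4 (-0.12 to 0.078 without single arrays). The cause was not tested. Replicate numbers did not pair the arrays: same-numbered arrays of different groups had correlated deviations of -0.06 to 0.08, and with the block 714 genes were called with TCDD and 1114 with Cl-BBQ, instead of 853 and 1441. With it the adjusted p of Irf4 with TCDD was 0.05005 and that of Fos with Cl-BBQ 0.0578, and among listed genes with Cl-BBQ those of Fosl2 (0.0565), Foxo1 (0.0628), Cd68 (0.0681), Klrb1f (0.0696), Slc7a5 (0.0832), Cdk4 (0.114), Mxi1 (0.116), Hsp90aa1 (0.135) and Icos (0.173) lost their calls, as did Hsp90aa1 (0.0645) and Thy1 (0.114) with TCDD, where Mxd3 gained one (0.0338). Low signal limits Fos, near the floor.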

Other observations

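As a description, the named genes whose log2 expression over the 13 arrays was most like each early activation gene were ranked by Pearson r, which includes the differences between groups. For Cd69 these were Pik3r5 (r = 0.979), a regulatory subunit of a phosphoinositide kinase, Exoc3 (0.978), a subunit of the exocyst, and Saraf (0.975), a regulator of store-operated calcium entry. All 3 were called higher with both ligands by limma. For Irf4 they were Kif20a (0.933), a mitotic kinesin, Fh1 (0.918), fumarate hydratase, and Ube2s (0.912), a ubiquitin-conjugating enzyme of the anaphase-promoting complex. Within groups, on deviations from the group means, the r of these was 0.83, 0.76 and 0.82. For Egr2 the closest was Cd27, a costimulatory receptor (0.952, and 0.958 within groups), followed by Cers4 (0.934) and Rnasek (0.930). For Myc they were Rflnb (0.918), Grb7 (0.916) and Socs3 (0.913), a feedback inhibitor of cytokine signalling, and within groups these were at 0.83, 0.78 and 0.71. Socs3 rose by 0.83 with TCDD and 1.35 with Cl-BBQ on the log2 scale (limma, adjusted p = 0.0146 and 1.18e-04).

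Nr4a1 was most like Mllt6 (0.941), Pacs1 (0.934) and Cpeb2 (0.914), Nr4a3 most like Ttyh2 (0.900), Ildr1 (0.879) and Nrros (0.872), and Batf most like Cd37 (0.925), Fkbp5 (0.922) and Morrbid (0.917). Of these 9, Cpeb2 was called with both ligands (log2 difference 0.56 with TCDD and 0.72 with Cl-BBQ), and Mllt6, Pacs1 and Cd37 with Cl-BBQ. Egr1 was most like Trim41 (0.921), Zbtb7b (0.885) and Rgl2 (0.871), and none of these 3 was called with either ligand. Egr3 was most like Grhl3 (0.894), Osbpl7 (0.859) and Grap2 (0.856). Fos was most like Amdhd2 (0.894), Ppp1r15a (0.890), a stress-induced phosphatase subunit, and Eif4ebp1 (0.850), a translation repressor. The arrays share groups, and with 13 of them high correlations arise easily among 12710 genes.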
